A study of Mus musculus with 71 samples.

Results

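The mature arms of 2 brain miRNA families, miR-129 and miR-153, are described here in mouse cortex, striatum and cerebellum. They were selected by name, mmu-miR-129-5p, mmu-miR-129-1-3p/129-2-3p, mmu-miR-153-3p and mmu-miR-153-5p, after the 2 arms of miR-129 had been seen to move in different directions in these same libraries, in a contrast that the choice does not name, so they are 4 of the 1927 mature miRNA rows of the deposited tables. The study profiled small RNA of left cortex, left striatum and right cerebellum of male mice. Their genotype was wild type (WT) or DYT1KI, which models the inherited dystonia DYT-TOR1A by a knock-in. Mice of each genotype were naive or had their right sciatic nerve crushed for 1 minute at 12 weeks of age, and tissue was labelled 12 weeks post injury. There were 71 libraries of 24 numbered animals in 12 groups, 5 libraries for injured WT cerebellum and 6 for every other group. Each of the 12 naive animals gave all 3 tissues.

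A primary miRNA transcript folds into a hairpin, which is cut to a duplex of a 5p and a 3p arm. Usually 1 arm is kept by an Argonaute protein and the other is degraded, and the kept arm finds its targets mainly through its seed, bases 2 to 8. miR-129-5p is known in rodent neurons for repressing the potassium channel Kv1.1 at dendrites and for a part in downscaling of synapses. miR-153 is known for targeting mRNAs of synaptic vesicle release proteins such as SNAP-25.

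The mature sequences that define the members follow, from RefSeq in its table for GRCm38.p6, written 5′ to 3′ with the seed in capitals, because the arms of 1 hairpin read different targets.
mmu-miR-129-5p: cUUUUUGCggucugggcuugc
mmu-miR-129-2-3p: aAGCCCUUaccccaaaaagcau
mmu-miR-153-3p: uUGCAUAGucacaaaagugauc
mmu-miR-153-5p: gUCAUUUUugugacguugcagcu

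The 4 seeds are all different, and no other mature mouse miRNA among the 1738 RefSeq entries shares a whole seed with any of them. miR-448-3p and miR-6335 share the first 6 bases of the miR-153-3p seed. miR-129-5p is encoded by 2 genes with identical mature sequence, Mir129-1 (chr6:29022624-29022644, plus strand) and Mir129-2 (chr2:94241419-94241439, minus strand), and a read of it cannot be assigned to either. The row mmu-miR-129-1-3p/129-2-3p joins the 3p arms of both genes. The hairpins, shown to make the arms visible, carry both mature arms in capitals.
Mir129-1: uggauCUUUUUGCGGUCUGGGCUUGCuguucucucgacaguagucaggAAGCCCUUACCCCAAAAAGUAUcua
Mir129-2: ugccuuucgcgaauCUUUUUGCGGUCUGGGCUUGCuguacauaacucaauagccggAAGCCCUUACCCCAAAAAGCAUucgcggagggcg
Mir153: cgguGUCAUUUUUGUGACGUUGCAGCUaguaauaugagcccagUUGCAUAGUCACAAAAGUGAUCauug

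The capitals in the 3p arm of Mir129-1 mark the stretch that best matches miR-129-2-3p, from which it differs by C20U, counted from 1 at the 5′ end of miR-129-2-3p. In GENCODE vM21, Mir129-1 (chr6:29022619-29022691) lies in an exon of the lincRNA Gm3294, and Mir129-2 (chr2:94241364-94241453) lies in an intron of the lincRNA Mir670hg, each on the strand of its host. Mir153 (chr12:117250817-117250885, plus strand) lies in an intron of Ptprn2, which encodes a transmembrane protein of dense-core vesicles. Mir129b is annotated on the opposite strand of Mir129-2 and overlaps it over 65 bases. Whether counting used strand is not given in the sources used here, so reads of Mir129-2 and Mir129b could not be told apart, but the rows of miR-129b-5p and miR-129b-3p held at most 28 and 2 reads in a library.

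Total counts ran from 5182284 to 12582875 per library, and 3 counts came to 0.579 CPM (read counts scaled to library size) in the shallowest library. All levels below are CPM after TMM scaling, not divided by length, and the mature sequences are 21 to 23 bases long. One row split the libraries: miR-24-3p held between 94332 and 132962 reads in 8 of 24 cortex libraries, 69536 and 78452 reads in 2 of 23 cerebellum libraries, and 0 in the other cortex and cerebellum libraries and in every striatum library. The 8 cortex libraries with miR-24-3p counts were biol rep 1 to 3 of both naive groups, biol rep 3 of injured WT mice and biol rep 2 of injured DYT1KI mice, so that 6 of 12 naive but 2 of 12 injured cortex libraries had them. The labels give the biological replicate number (biol rep) from 1 to 6 and no batch. Values are therefore also given within biol rep 1 to 3 and within 4 to 6, and without the libraries with miR-24-3p counts. In injured WT cerebellum the animal that is biol rep 1 in cortex and striatum is missing, and the numbers are shifted. Biol rep 3 of that group is the animal that is biol rep 4 in cortex and striatum. Its range of 4 to 6 holds 2 libraries. For injured WT mice the ranges in cerebellum therefore do not hold the same animals as those in the other tissues.

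In naive mice the 2 arms of miR-129 had different regional orders. miR-129-5p was highest in striatum at 2981 ± 343 CPM, against 1475 ± 435 in cortex and 1450 ± 412 in cerebellum (SD, n = 12 animals). miR-129-3p, the combined 3p row, was highest in cortex at 125 ± 60.03 CPM, against 48.9 ± 19.2 in striatum and 24.4 ± 17.97 in cerebellum. Both miR-153 arms were highest in striatum and lowest in cerebellum. miR-153-3p averaged 299 ± 33.8 CPM in striatum, 250 ± 74.7 in cortex and 113 ± 26.5 in cerebellum. miR-153-5p averaged 203 ± 12.3 CPM in striatum, 144.6 ± 14.5 in cortex and 62.8 ± 16.3 in cerebellum. By mean naive CPM, miR-129-5p was the 40th, 49th and 56th most abundant miRNA of striatum, cortex and cerebellum.

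**Figure D1:**
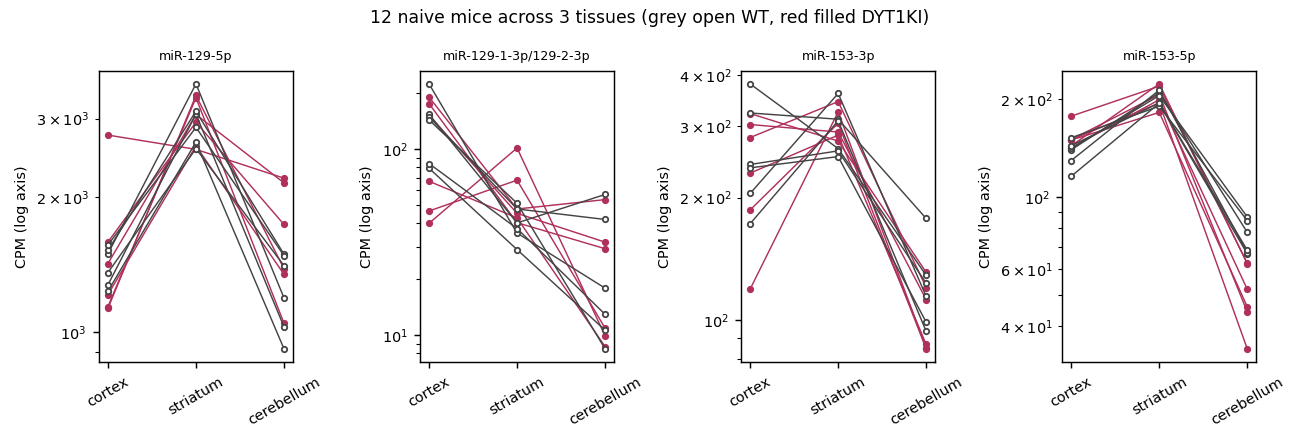
CPM (log axis) of each arm in the 3 tissues of 12 naive mice, 1 line per animal (grey open, WT; red filled, DYT1KI). miR-129-5p peaked in striatum in 11 of 12 animals against cortex, while miR-129-3p was lower in cerebellum than in cortex in all 12.

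These regional differences were tested with edgeR's quasi-likelihood test across all miRNAs with the animal as a block, and a call needed an adjusted p (Benjamini-Hochberg) under 0.05 and an absolute log2 difference of at least 1. By this rule 23.8% of 627 miRNAs were called between striatum and cortex, 42.7% between cerebellum and cortex and 43.9% between cerebellum and striatum. The naive cortex libraries are also the baseline of the injury contrast in which the miR-129 arms moved apart, so the differences of these arms from cortex are given with no test. The striatum against cortex difference of miR-129-5p was 1.13 ± 0.11 (log2, SE), and it was higher in 11 of 12 animals. That of miR-129-3p was -1.12 ± 0.31, and it was lower in 10 of 12 animals. Between cerebellum and cortex, miR-129-3p differed by -2.48 ± 0.32 and was lower in 12 of 12 animals, whereas miR-129-5p differed by -0.04 ± 0.11 with overlapping ranges of 917 to 2208 and 1130 to 2756 CPM. Between cerebellum and striatum both arms were called, miR-129-5p at -1.17 ± 0.11 and miR-129-3p at -1.36 ± 0.32 (edgeR adjusted p = 2.97e-10 and 0.000474).

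The striatum against cortex difference of miR-129-3p was -1.94 within biol rep 1 to 3, whose cortex libraries all had miR-24-3p counts, and -0.46 within biol rep 4 to 6, where none did. The miR-129-5p difference was 1.42 and 0.82 in the same subsets. The cerebellum against striatum difference of miR-129-3p was -0.30 within biol rep 1 to 3 (edgeR adjusted p = 0.213). In DYT1KI mice alone the striatum against cortex difference of miR-129-3p was -0.59. Between cerebellum and striatum, miR-129-5p differed by -0.79 within biol rep 4 to 6 and by -0.91 in DYT1KI mice alone, and miR-129-3p by -0.95 in WT mice alone, all under the limit of 1. The cerebellum was extracted with another kit than cortex and striatum, per the labels' protocols, so that its differences from them and a kit difference cannot be told apart. Fewer cells of a type and less of a miRNA per cell cannot be told apart in bulk tissue.

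Both arms of miR-153 differed from the other tissues in the same direction in cerebellum. miR-153-3p was lower there by -1.13 ± 0.12 against cortex and -1.52 ± 0.12 against striatum on the log2 scale, and miR-153-5p by -1.24 ± 0.11 and -1.79 ± 0.11 (edgeR adjusted p at most 4.22e-09), in 12 of 12 animals each time. In WT mice alone the cerebellum against cortex difference of miR-153-5p was -0.84, under the limit. Against cortex, the striatum difference of miR-153-3p was 0.39 ± 0.12 and that of miR-153-5p 0.55 ± 0.10 (edgeR adjusted p = 0.00774 and 5.11e-05), both under the log2 limit of 1 and so not called, although the 12 striatum values of miR-153-5p, 182 to 223 CPM, all lay above its 12 cortex values, 116 to 177 CPM. miR-448-3p, which shares 6 seed bases with miR-153-3p and is hosted by Htr2c, the gene of a serotonin receptor, had naive medians of 3.08 CPM in cortex, 18.3 in striatum and 117 in cerebellum. Its level was therefore highest in the tissue where miR-153-3p was lowest. Of the 5 Htr2c-hosted miRNAs, which include it, 4 could be tested between cerebellum and cortex. All 4 were called higher in cerebellum (median log2 difference 4.07), beside 120 of 627 over all miRNAs. miR-6335 had 0 reads in every library. A link between miR-448-3p and miR-153-3p was not tested. The mature sequence of miR-448-3p (chrX:147158281-147158302, plus strand) is given with its seed in capitals, to show where it parts from miR-153-3p.
mmu-miR-448-3p: uUGCAUAUguaggaugucccau

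Among 15 neuron-enriched miRNAs the list median was -0.47 in striatum against cortex (1 called higher and 3 lower), -1.17 in cerebellum against cortex (0 higher, 8 lower) and -1.02 in cerebellum against striatum (3 higher, 8 lower). Over all 627 tested, the medians were 0.01, -0.12 and -0.13, with 72 higher and 77 lower, 120 and 148, and 122 and 153. Among 13 miRNAs with known roles in synaptic plasticity or scaling, of which 9 are also in the neuron-enriched list, the medians were -0.07 (1 higher, 4 lower), -0.70 (0 higher, 6 lower) and -0.97 (3 higher, 6 lower).

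The ratio of the arms within a library needs no scaling between libraries. It is given as the log2 of the 5p count over the 3p count, each with 0.5 added. In naive mice the miR-129 ratio averaged 3.70 ± 1.11 in cortex, 5.999 ± 0.556 in striatum and 6.19 ± 1.37 in cerebellum (SD, n = 12). It was above 0 in every library, so the 5p arm was counted more often throughout. The ratio was higher in striatum than in cortex by 2.30 ± 1.52 (SD of the paired differences, 11 of 12 animals). It was higher in cerebellum than in cortex by 2.49 ± 0.89 (12 of 12 animals). These values are a description, since the members were chosen for arms of miR-129 that moved apart. Between cerebellum and striatum the difference was 0.19 ± 1.64, with 6 animals each way. Within biol rep 1 to 3 and 4 to 6 the mean differences were 3.33 and 1.26 for striatum against cortex, 2.14 and 2.83 for cerebellum against cortex, and -1.19 and 1.57 for cerebellum against striatum.

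The miR-153 ratio was close to even and favoured the 3p arm. It averaged -0.73 ± 0.54 in cortex, -0.55 ± 0.18 in striatum and -0.86 ± 0.48 in cerebellum. No tissue pair passed the test, and the mean differences were 0.18 for striatum against cortex, -0.13 for cerebellum against cortex and -0.31 for cerebellum against striatum (exact two-sided sign-flip permutation over 12 animals, adjusted p = 0.473, 0.473 and 0.105 over 6 tests). The raw p of the same permutation were 0.352, 0.395 and 0.0527. The 6 tests of the adjustment include those of the miR-129 ratio, which are not reported. The same differences within biol rep 1 to 3 and 4 to 6 were 0.64 and -0.28, -0.09 and -0.17, and -0.73 and 0.11.

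**Figure D2:**
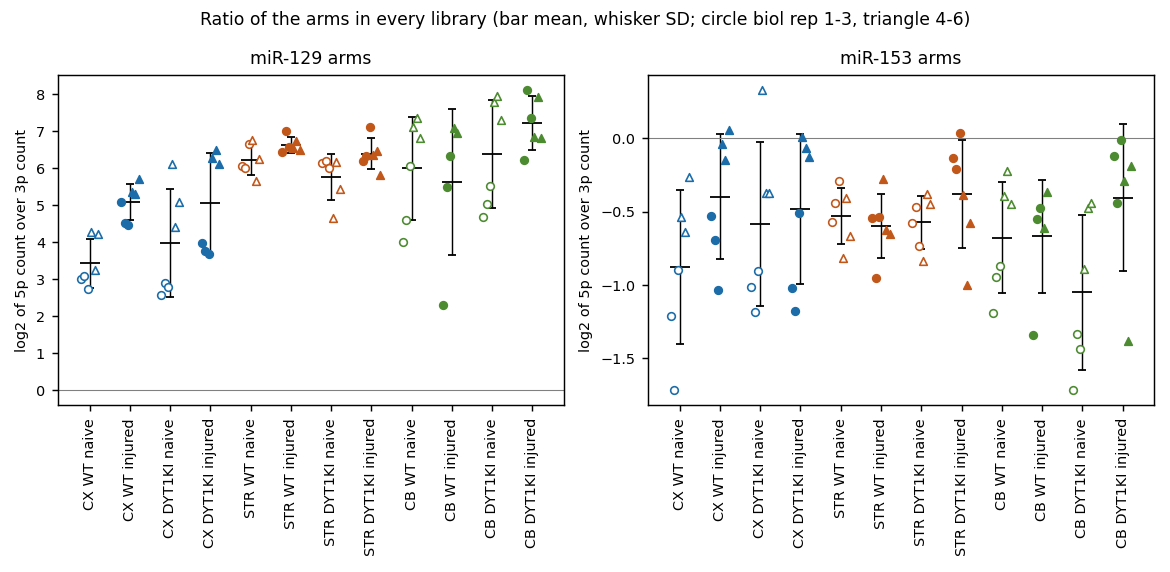
Log2 of the 5p over the 3p count in every library, by tissue (CX cortex, STR striatum, CB cerebellum), genotype and treatment, for miR-129 (left) and miR-153 (right); bars are means and whiskers SD. The miR-129 ratio lay between 2.57 and 6.48 in cortex, and in WT cortex the 6 injured libraries lie above the 6 naive ones.

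The injury comparison asks whether a peripheral nerve lesion leaves a trace in the brain. The opposite movement of the miR-129 arms, on which the members were chosen, is seen in this contrast, so it was taken as used by the choice and its differences are described without a test. In cortex 30.9% of 530 miRNAs passed an adjusted p under 0.05 (edgeR), 58 higher and 106 lower, or 101 higher and 66 lower with upper-quartile scaling, which moved the median of all miRNAs from -0.03 to 0.08, and nothing is read from the members' place among them. That count was 0 without the 8 libraries with miR-24-3p counts, and 0 without the 4 cortex libraries rich in miRNAs of choroid plexus, Htr2c or muscle. At an unadjusted p under 0.05 (edgeR) were 244 of 530 miRNAs in the full fit. Without the 8 libraries there were 78 of 538, and without the 4 libraries 203 of 533. The count of miRNAs called ranged from 25 to 220 when single libraries were left out. The 25 came without biol rep 4 of injured DYT1KI mice.

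In WT cortex miR-129-5p stood at 1233, 1275, 1496, 1524, 1358 and 1565 CPM in naive biol rep 1 to 6. In injured mice it stood at 1963, 1699, 1596, 1919, 1984 and 2204 CPM. The groups did not overlap. In DYT1KI cortex the median was 1317 CPM in naive mice (1130 to 2756) and 1993 in injured mice (1348 to 2819), and these groups overlapped. Biol rep 4 of the naive DYT1KI group, at 2756 CPM, stood apart from the other 5, which reached 1589. Averaged over genotypes, the injured minus naive difference was 0.41 ± 0.14 (log2, SE).

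miR-129-3p went the other way in the same libraries. In WT cortex it stood at 153.8, 149, 224, 79.0, 144 and 83.7 CPM in naive biol rep 1 to 6. In injured mice it stood at 57.8, 73.7, 71.5, 46.7, 49.8 and 41.9 CPM, all below the lowest naive value. In naive DYT1KI cortex it stood at 190, 152, 175, 40.0, 67.2 and 46.5 CPM, so biol rep 1 to 3 were at least 2-fold above 4 to 6. In injured DYT1KI cortex the values were 117, 110, 105, 30.7, 31.4 and 30.6 CPM, split in the same way. The averaged difference was -0.97 ± 0.29.

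The miR-129 arm ratio in cortex was higher after injury by 1.65 in WT and 1.07 in DYT1KI mice. Its average, 1.36, was 1.40 within biol rep 1 to 3 and 1.32 within 4 to 6. The fitted differences within these subsets were 0.58 and 0.40 for miR-129-5p and -0.83 and -0.94 for miR-129-3p. Without the libraries with miR-24-3p counts, the miR-129-3p difference was -0.28 and that of miR-129-5p was 0.33. This subset holds naive libraries of biol rep 4 to 6 only, but injured libraries of both ranges. Leaving out these libraries and changing the mix of biol rep therefore cannot be told apart in it. The part of the libraries with miR-24-3p counts in the difference was not tested further.

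Both miR-153 arms had lower means in injured cortex. miR-153-3p averaged 260 ± 77.8 CPM in naive and 154.5 ± 26.1 in injured WT mice, and 240 ± 77.4 and 166 ± 54.5 in DYT1KI mice (SD, n = 6). The averaged difference was -0.63 ± 0.17, with 11 of 12 injured libraries below the naive mean of their genotype, and was -0.32 without the libraries with miR-24-3p counts. miR-153-5p averaged 137 ± 12.7 and 118 ± 22.9 CPM in WT mice and 152 ± 12.8 and 114 ± 9.91 in DYT1KI mice, where the 6 injured libraries all lay below the 6 naive ones. Its averaged difference was -0.31 ± 0.09, and -0.29 without the libraries with miR-24-3p counts. The values of miR-153-5p and miR-129-5p thus each moved by less than their SE in that subset. Those of miR-129-3p and miR-153-3p moved toward 0 by more than their SE. The mix of biol rep differs between the naive and injured libraries of that subset, and the cause was not tested.

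**Figure D3:**
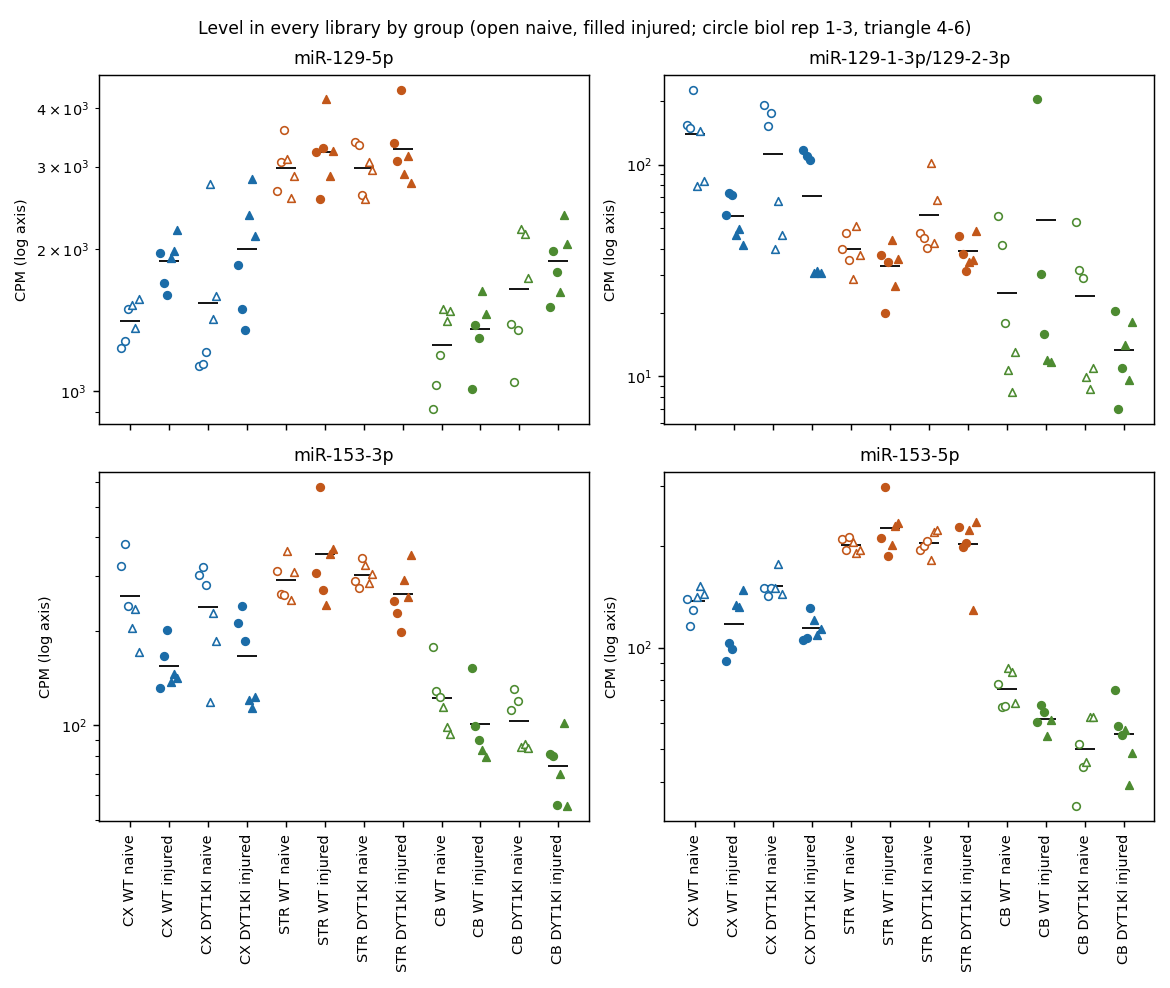
CPM (log axis) of the 4 arms in all 71 libraries by group (CX cortex, STR striatum, CB cerebellum; open naive, filled injured; circles biol rep 1 to 3, triangles 4 to 6; bars, group means). In cortex the circles of miR-129-3p sit above most triangles in every group, and biol rep 1 of injured WT cerebellum stands alone at 205 CPM.

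In striatum and cerebellum 0% of 547 and 0% of 555 miRNAs passed the injury contrast in edgeR, with 54 and 41 at an unadjusted p under 0.05, and DESeq2 called 1 and 0. In striatum the differences were 0.07 ± 0.08 for miR-129-5p, -0.47 ± 0.15 for miR-129-3p, -0.02 ± 0.11 for miR-153-3p and 0.03 ± 0.08 for miR-153-5p. For miR-129-3p 11 of 12 injured libraries lay below the naive mean of their genotype, and no striatum library had miR-24-3p counts. In cerebellum they were 0.23 ± 0.13, 0.24 ± 0.48, -0.31 ± 0.14 and 0.01 ± 0.11 in the same order. Without biol rep 1 of injured WT mice the cerebellum value of miR-129-3p was -0.62.

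Among the marker lists in cortex, the 6 microglia and leukocyte miRNAs had a median injury difference of -0.53 (1 higher and 3 lower), with summed levels of 240 to 604 CPM in naive and 230 to 421 CPM in injured libraries. All 6 were counted in every cortex group. The neuron-enriched list had a median of -0.13 (1 higher, 6 lower of 15), the synaptic list -0.28 (1 higher, 4 lower of 13), the 4 oligodendrocyte miRNAs -0.34 (0 higher, 1 lower) and the 5 endothelial and vessel wall miRNAs 0.06 (0 higher, 2 lower), beside -0.03 over all 530, of which 58 were higher and 106 lower (30.9% called). Of the blood list 2 of 4 could be tested (median -1.33; 0 higher, 1 lower), of the choroid plexus list 3 of 5 (0.01; 1 higher, 0 lower) and of the Htr2c-hosted list 3 of 5 (0.76; 0 higher, 0 lower). The part of other cell types in the members' differences was not tested.

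The genotype comparison asks whether the DYT1KI mutation changes brain miRNAs, at rest or after injury. No member passed in any tissue. In naive mice 0% of 530, 547 and 555 miRNAs were called in cortex, striatum and cerebellum by edgeR, with 24, 15 and 65 at an unadjusted p under 0.05. DESeq2 called 0, 0 and 11, the last among the 28 miRNAs its filter left with an adjusted p. In injured mice it was again 0% in each tissue, with 10, 72 and 122 at an unadjusted p under 0.05, and DESeq2 called 0 in each. The interaction of genotype and injury gave 0% as well, with 20, 16 and 14 at an unadjusted p under 0.05, and 0 by DESeq2.

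The widest genotype differences were in cerebellum. miR-129-5p was 1253 ± 245 CPM in naive WT and 1647 ± 469 in naive DYT1KI mice (SD, n = 6). The difference was 0.49 ± 0.18 on the log2 scale (edgeR adjusted p = 0.331). In injured mice the means were 1355 ± 231 (n = 5) and 1890 ± 315 CPM (n = 6), again a difference of 0.49 ± 0.19 (edgeR adjusted p = 0.162), with 6 of 6 DYT1KI libraries above the WT mean. miR-153-5p was 77.8, 66.9, 67.4, 86.8, 84.6 and 68.6 CPM in naive WT cerebellum. In naive DYT1KI cerebellum it was 34.1, 52.0, 44.3, 45.9, 62.5 and 62.4 CPM, all below the lowest WT value, and the difference of -0.49 ± 0.15 did not pass over all miRNAs (edgeR adjusted p = 0.331).

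miR-129-3p gave the largest genotype difference of any member in naive or injured mice. It was -2.05 ± 0.70 in injured cerebellum (edgeR adjusted p = 0.162), and 1 library decided it. The 5 injured WT libraries held 2376, 233, 140, 79 and 109 reads, and the 6 DYT1KI libraries held 49 to 186. Without biol rep 1 of the WT group, which had miR-24-3p counts, the difference was -0.34. Within biol rep 4 to 6, which held 2 of the WT libraries, it was 0.16. The authors' deposited table gives -0.80 with a standard error of 0.249 for this comparison. The arm ratio differed by 1.57 (exact two-sided permutation test, 6 against 5, adjusted p = 0.582 over 12 tests, raw p = 0.0606), and by 0.74 without that library. In injured cerebellum miR-129-5p was higher and miR-129-3p lower in DYT1KI mice, so the arms went opposite ways there too. The choice of the members does not name its contrast, so the p-values of these arms and their ratio are not taken as support.

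In striatum, miR-153-3p was 353 ± 119 CPM in injured WT and 263 ± 53.4 in injured DYT1KI mice (SD, n = 6), a difference of -0.39 ± 0.16 (edgeR adjusted p = 0.330). It was -0.20 without biol rep 2 of injured WT mice, and -0.70 and -0.06 within biol rep 1 to 3 and 4 to 6. In naive mice miR-129-3p differed by 0.48 ± 0.21 (edgeR adjusted p = 0.975), by 0.22 without biol rep 4 of naive DYT1KI mice, and by 0.07 and 0.84 within the 2 ranges. In cortex the 8 genotype differences of the members lay between -0.30 and 0.34, and 2 SE on either side reached from -1.12 to 1.16, the widest for miR-129-3p, so a difference of that size was not detectable. None of the 12 arm-ratio differences between genotypes passed (exact permutation, adjusted p from 0.582 to 0.963; the smallest raw p possible is 0.00216 for 6 against 6 and 0.00433 for 6 against 5). The permutations did not account for the range of biol rep. In cortex the miR-129 ratio difference of -0.03 in injured mice was -0.89 within biol rep 1 to 3 and 0.83 within 4 to 6, and that of 0.55 in naive mice was -0.19 and 1.29.

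**Figure D4:**
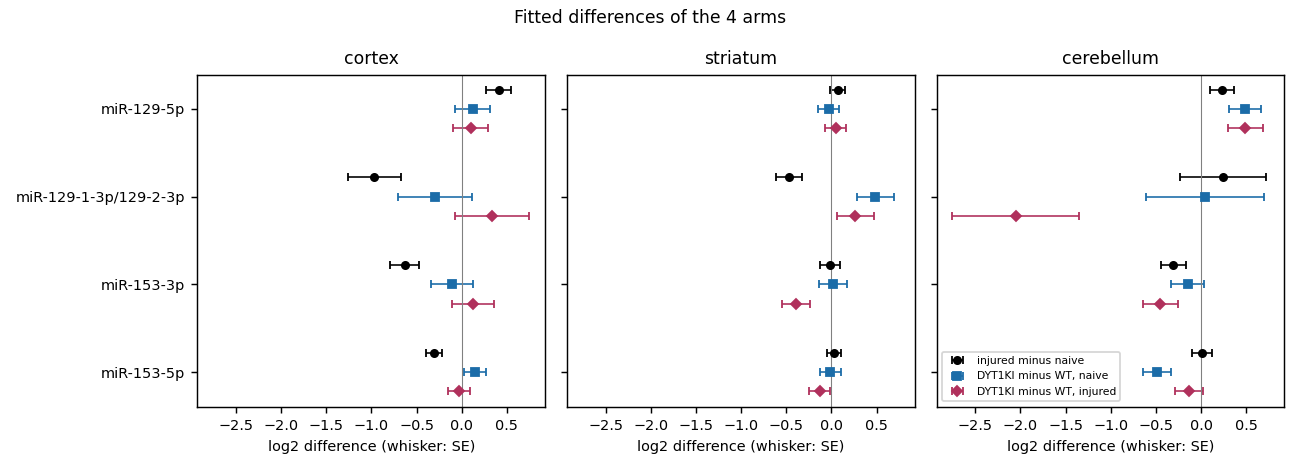
Fitted log2 differences of the 4 arms in cortex, striatum and cerebellum, with SE as whiskers: injured minus naive averaged over genotypes (black circles), DYT1KI minus WT in naive mice (blue squares) and in injured mice (red diamonds). In cortex the black circles of miR-129-5p and miR-129-3p lie on opposite sides of 0, at 0.41 and -0.97.

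The arms also varied among themselves within groups. The log2 CPM of each library was taken as its deviation from its group mean, which removes the differences between groups. The 6 pairs of members were correlated in each tissue (18 relations, 100000 permutations, smallest raw p possible 1e-05). These permutations did not account for the range of biol rep. In cortex miR-129-5p and miR-129-3p varied in opposite directions, with r = -0.81 and rho = -0.86 over 24 libraries. The members were chosen for arms of miR-129 that moved apart in these same libraries. The values of this pair are therefore a description and are given with no test, although its relations are among the 18 of the adjustment. Without the 2 libraries farthest from the median of miR-129-5p, r was -0.80. Within biol rep 1 to 3 it was -0.44 and within 4 to 6 -0.69 (12 libraries each). In cerebellum r was -0.79 and rho -0.81 over 23 libraries. There r was -0.79 without 2 libraries, -0.70 within biol rep 1 to 3 and -0.51 within 4 to 6. In striatum r was -0.04 and rho -0.13 over 24 libraries. There r was -0.11 without 2 libraries, with 0.19 and -0.12 within the 2 ranges.

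**Figure D5:**
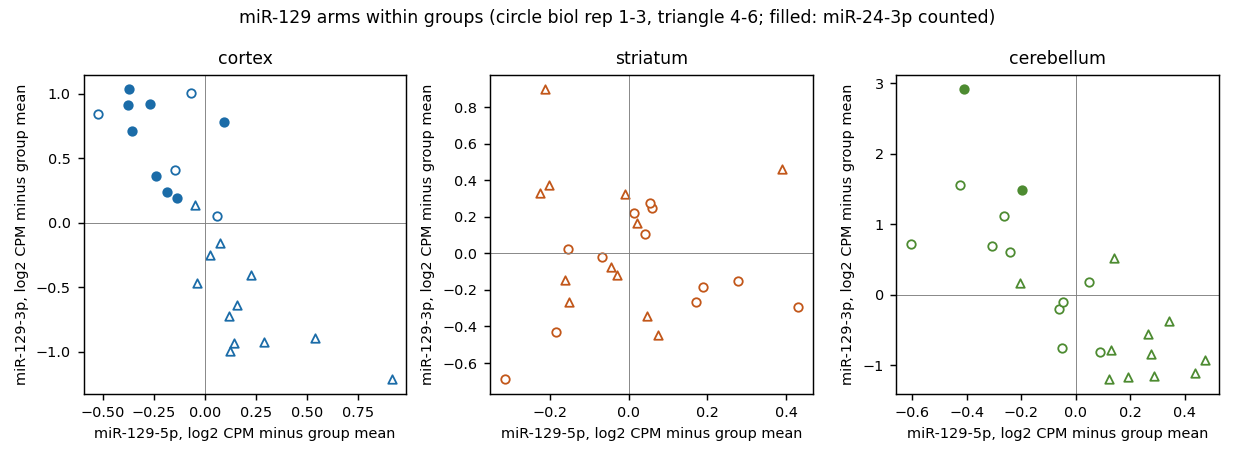
Deviation from the group mean (log2 CPM) of miR-129-3p against that of miR-129-5p in each library of cortex, striatum and cerebellum (circles biol rep 1 to 3, triangles 4 to 6; filled, libraries with miR-24-3p counts). The points fall from upper left to lower right in cortex (r = -0.81) and cerebellum (r = -0.79), with circles mostly upper left, and show no such order in striatum (r = -0.04).

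The split followed the replicate numbers and miR-24-3p. In cortex miR-129-3p had a median of 133.1 CPM in biol rep 1 to 3 and 46.6 in 4 to 6, and 153 against 53.8 CPM in libraries with and without miR-24-3p counts. The medians of miR-129-5p were 1419 and 1951 CPM in the same ranges of biol rep. In cerebellum the miR-129-3p medians were 29.8 CPM in biol rep 1 to 3 and 10.9 in 4 to 6, and in striatum 39.1 and 40.1. The part of a batch in this was not tested. miR-129-3p had a within-group SD of 0.79, 0.38 and 1.15 (log2 CPM) in cortex, striatum and cerebellum, beside medians over all miRNAs with a mean count of at least 10 of 0.38, 0.28 and 0.41, while miR-153-5p had 0.18, 0.21 and 0.25.

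miR-153-3p varied with miR-129-3p and against miR-129-5p. With miR-129-3p, r was 0.85 and rho 0.85 in cortex (permutation, adjusted p = 6e-05 for both; 0.82 without 2 libraries; 0.28 within biol rep 1 to 3 and 0.77 within 4 to 6). In cerebellum r was 0.71 and rho 0.63 (permutation, adjusted p = 0.00042 and 0.00554; 0.52 without 2 libraries; 0.76 and 0.16 in the 2 ranges). In striatum r was -0.33 and rho -0.26 (permutation, adjusted p = 0.225 and 0.316; -0.23 without 2 libraries; -0.60 and -0.24 in the 2 ranges). With miR-129-5p, r was -0.88 in cortex, -0.71 in striatum and -0.62 in cerebellum, and rho -0.88, -0.59 and -0.58 (permutation, adjusted p at most 0.0035 for r and 0.0112 for rho). Without 2 libraries r was -0.82, -0.59 and -0.51. Within biol rep 1 to 3 these were -0.58, -0.77 and -0.70, and within 4 to 6 -0.87, -0.59 and 0.07, so that the cerebellum relation did not hold in the second range.

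The 2 arms of miR-153 did not vary together in all tissues. Their r was -0.26 in cortex, 0.52 in striatum and -0.19 in cerebellum, and rho -0.36, 0.49 and -0.05 (permutation, adjusted p = 0.345, 0.0316 and 0.454 for r, and 0.165, 0.0336 and 0.853 for rho). The striatum value was 0.23 without 2 libraries, so it rests on them. Without 2 libraries the other tissues gave -0.23 and -0.25. Within biol rep 1 to 3 and 4 to 6 the r values were 0.18 and 0.67 in cortex, 0.77 and 0.40 in striatum, and 0.00 and -0.46 in cerebellum. The other 6 relations, those of miR-153-5p with either arm of miR-129, had r from -0.27 to 0.11 and rho from -0.30 to 0.24 and did not pass (permutation, adjusted p at least 0.345 for r and 0.282 for rho). In cortex the values within the ranges differed from the pooled ones. There miR-153-5p with miR-129-5p gave r = 0.11 over all libraries, but -0.63 within biol rep 1 to 3 and -0.47 within 4 to 6. With miR-129-3p it gave -0.25 over all, but 0.59 and 0.73 within the ranges. In striatum and cerebellum the within-range values of these relations lay between -0.52 and -0.03.

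For each member the 3 miRNAs whose deviations were most alike were taken from the other 427 with a median count of at least 10 in every tissue, by the mean r over the 3 tissues. They are a description, since all points share their libraries. miR-129-5p was most like miR-337-5p, miR-139-3p and miR-30c-2-3p (mean r = 0.91, 0.91 and 0.89). miR-129-3p was most like miR-92a-3p, miR-23a-3p/23b-3p and miR-365-3p (0.91, 0.88 and 0.85). miR-153-3p was most like miR-29b-3p, miR-384-3p and miR-136-5p (0.92, 0.90 and 0.89), and miR-153-5p was most like miR-341-3p, miR-300-3p and miR-431-3p (0.71 each). The opposite arm of the same hairpin was in none of the 4 sets. The GC content of the miR-129-5p set ran from 50% to 68.2%, beside 57.1% in miR-129-5p, and that of the miR-153-3p set from 27.3% to 36.4%, beside 36.4% in miR-153-3p. In the miR-129-3p set it ran from 31.8% to 57.1%, beside 45.5% in miR-129-2-3p, and in the miR-153-5p set from 50% to 66.7%, all above the 43.5% of miR-153-5p.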

How the data were processed

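The labels' protocols name the QIASeq miRNA UDI library kit and 500 ng of total RNA. Per the submitters' processing notes, R 4.1.0 and featureCounts 1.6.4 were used; neither an aligner nor a build is named, and how molecular identifiers were used is not given. The deposited tables, 12 in all, hold raw counts per miRNA, which were analysed here. They also hold, per the file headers, the authors' normalized signal, log2 fold changes, test statistics (a score) and p-values. 1 log2 fold change was copied from them.

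The members and lists were chosen with earlier results of these data known. Counts were fitted per tissue, 4 groups together, with edgeR 4.0.16 (TMM, filterByExpr with a minimum count of 10 and total of 15, robust quasi-likelihood test, Benjamini-Hochberg over all miRNAs; R 4.3.3). The 36 naive libraries were fitted with the animal as a block. The code was tested on simulated data. Named miRNAs are the members, the 3 most alike of each and those that share a seed; miR-448-3p was added after its values were seen. Alternatives were DESeq2 1.42.0, limma 3.58.1 voom, other scalings, no filter, replicate subsets and single libraries left out. Intervals of differences are 2 SE of the fit on either side and carry the spread between animals, and floors cover counting error only. The labels number separate animals, and the p-values rest on the spread between them. In cortex and cerebellum that spread includes the split by range of biol rep, for which the fits per tissue and the permutations did not account.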

Additional observations from a re-analysis of the deposited data

Results flagged for a closer look

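Of the 72 sets of values tested (4 arms and 2 ratios in 12 groups), 8 held a library that stood apart from the rest of its group. Chance gives about 1 in 20 for a single set. The sets share libraries and the ratios are made from the arms, so no excess over chance is read from the 8. Biol rep 4 of naive DYT1KI cortex had 2756 CPM of miR-129-5p, against 1130 to 1589 in the other 5 libraries, and it was one of the cortex libraries without miR-24-3p counts. Biol rep 1 of injured WT cerebellum, which had miR-24-3p counts, stood apart in 3 measures. Its miR-129-3p was 205 CPM against 11.6 to 30.4, its miR-153-3p 152 CPM against 79.0 to 99.6, and its miR-153 log2 arm ratio -1.34 against -0.61 to -0.37.

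Biol rep 2 of injured WT striatum had 578 CPM of miR-153-3p against 243 to 367. Biol rep 5 of naive DYT1KI cortex had 177 CPM of miR-153-5p against 142 to 150.2. Biol rep 5 of injured DYT1KI striatum had 128.9 CPM of miR-153-5p against 199 to 235. The miR-153 log2 arm ratio of biol rep 5 of injured DYT1KI cerebellum was -1.38 against -0.44 to -0.01.

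The naive genotype difference of miR-153-5p went opposite ways in 2 tissues. In cerebellum the DYT1KI mean was -25.2 CPM from the WT mean and all 6 DYT1KI libraries lay below it, while in cortex it was 15.1 CPM above and all 6 lay above. In cortex the groups overlapped, with 1 of 6 DYT1KI libraries above every WT library, and the difference was 0.15 ± 0.12 (log2, SE). Neither tissue's difference passed (edgeR adjusted p = 0.331 in cerebellum and 0.746 in cortex). The difference between the tissues was not tested.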

How the results depend on the processing

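With DESeq2 in place of edgeR, with voom, without a filter and with other scalings no tested tissue difference of a member crossed the limits of a call. No genotype or interaction difference of a member passed in any setting tried. The subsets named here by miR-24-3p, and the tissue differences within biol rep ranges, were chosen after seeing the data. Differences are log2, DYT1KI minus WT where a condition is named, and cover reversed signs of tested differences and lost calls. The cause was not tested.

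Differences near 0 relative to their spread also changed sign. The miR-129 arm ratio within biol rep 1 to 3 gave -1.19 (cerebellum against striatum) and -0.19 (cortex, naive), and miR-129-3p -0.17 (cerebellum, injury). Within biol rep 4 to 6 the miR-129 arm ratio gave 0.83 (cortex, injured) and -0.28 (cerebellum, injury), and the miR-153 arm ratio -0.28 (striatum against cortex), 0.11 (cerebellum against striatum), 0.074 (striatum, naive), -0.13 (cerebellum, injured) and -0.075 (cerebellum, injury). For injury, miR-153-3p in striatum was 0.0036 with upper-quartile scaling, and miR-153-5p in cerebellum -0.015 with DESeq2 size factors, -0.014 with DESeq2 and -0.038 without the libraries with miR-24-3p counts, where miR-129-3p was -0.41.

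Within biol rep 1 to 3 the values were 0.58 for miR-153 arm ratio (striatum, injured), -0.24 for miR-129-5p (cortex, naive), -0.19 for miR-129-5p (cortex, injured), 0.19 for miR-153-5p (cortex, injured), 0.054 for miR-129-5p (cortex, interaction), 0.029 for miR-153-5p (cortex, interaction), 0.31 for miR-129-3p (striatum, interaction) and -0.30 for miR-129-3p (cerebellum against striatum). Within biol rep 4 to 6 they were -0.14 for miR-153 arm ratio (striatum, injured), -0.57 for miR-129-3p (cortex, injured), -0.25 for miR-153-3p (cortex, injured), -0.019 for miR-153-3p (cortex, interaction), -0.021 for miR-153-3p (striatum, naive), 0.068 for miR-153-5p (striatum, naive), -0.17 for miR-129-5p (striatum, injured), -0.17 for miR-129-5p (striatum, interaction), -0.11 for miR-129-3p (cerebellum, naive), 0.16 for miR-129-3p (cerebellum, injured), 0.27 for miR-129-3p (cerebellum, interaction), -0.22 for miR-129-5p (cerebellum, interaction), 0.0073 for miR-153-3p (cerebellum, interaction), -0.28 for miR-153-5p (cerebellum, injury), -0.46 for miR-129-3p (striatum against cortex), 0.82 for miR-129-5p (striatum against cortex), 0.030 for miR-129-5p (cerebellum against cortex) and -0.79 for miR-129-5p (cerebellum against striatum). With the replicate number as a block they were -0.0052 for miR-129-5p (cortex, injured), 0.0026 for miR-153-5p (striatum, naive) and -0.031 for miR-129-5p (cerebellum, interaction). With the range of biol rep as a term they were -0.0038 for miR-129-5p (cortex, injured) and -0.0059 for miR-129-5p (cerebellum, interaction). With no filter the value was 0.0022 for miR-153-5p (striatum, naive). Without the libraries with miR-24-3p counts they were -0.37 for miR-129-3p (cerebellum, naive), 0.027 for miR-129-3p (cerebellum, interaction) and -0.12 for miR-129-5p (cerebellum, interaction). With DESeq2 size factors in edgeR they were -0.0098 for miR-129-5p (cerebellum, interaction) and 0.026 for miR-129-5p (cerebellum against cortex). Upper-quartile scaling gave -0.057 for miR-129-5p (cerebellum, interaction). DESeq2 gave -0.0098 for miR-129-5p (cerebellum, interaction) and 0.026 for miR-129-5p (cerebellum against cortex). In DYT1KI mice alone the differences were -0.59 for miR-129-3p (striatum against cortex), 0.15 for miR-129-5p (cerebellum against cortex) and -0.91 for miR-129-5p (cerebellum against striatum). In WT mice alone the differences were -0.84 for miR-153-5p (cerebellum against cortex) and -0.95 for miR-129-3p (cerebellum against striatum). Leaving out single libraries changed the sign of the following, none of which passed, with the lowest and highest values given: miR-129 arm ratio (cerebellum against striatum) -0.077 to 0.39, miR-129 arm ratio (cortex, injured) -0.32 to 0.24, miR-129 arm ratio (cerebellum, naive) -0.014 to 0.72, miR-153 arm ratio (cortex, injured) -0.21 to 0.055, miR-153 arm ratio (striatum, naive) -0.10 to 0.010, miR-129-5p (cortex, naive) -0.12 to 0.21, miR-153-3p (cortex, naive) -0.25 to 0.020, miR-129-5p (cortex, injured) -0.081 to 0.19, miR-153-3p (cortex, injured) -0.015 to 0.19, miR-129-5p (cortex, interaction) -0.20 to 0.14, miR-129-5p (striatum, naive) -0.080 to 0.019, miR-153-3p (striatum, naive) -0.029 to 0.082, miR-153-5p (striatum, naive) -0.046 to 0.0059, miR-129-5p (striatum, injured) -0.021 to 0.14, miR-129-3p (striatum, interaction) -0.32 to 0.042, miR-129-3p (cerebellum, naive) -0.37 to 0.47, miR-129-5p (cerebellum, interaction) -0.10 to 0.13 and miR-129-5p (cerebellum against cortex) -0.21 to 0.040. Same-numbered pairs correlated above 0.1 in 30 of 36 cases in cortex, 8 of 36 in striatum and 20 of 33 in cerebellum. Of the libraries, 7 of 24, 3 of 24 and 9 of 23 correlated best with their own number. The median r of same and of different numbers was 0.28 and -0.15 in cortex, -0.10 and 0.01 in striatum, and 0.22 and -0.03 in cerebellum. Within and between the ranges of biol rep it was 0.28 and -0.33 in cortex, and 0.11 and -0.08 in cerebellum. Whether the replicate numbers pair the libraries was not tested. The block gave 242 calls for injury in cortex and 1 in striatum, and it changed no call of a member. The count of 164 miRNAs called for injury in cortex was 256 with the range of biol rep as a term. It was 107 or fewer without biol rep 1, 4 or 6 of injured WT, 2 of naive WT, 2 or 3 of naive DYT1KI, or 4, 5 or 6 of injured DYT1KI mice. Counts of 0 became 4 (range as a term) and 5 (injured, within biol rep 1 to 3) for genotype in cortex, 2 for genotype in naive striatum within biol rep 4 to 6, 1 for injury in striatum with the range as a term or without biol rep 3 of naive WT or 6 of injured DYT1KI mice, 32 for injury in cerebellum within biol rep 1 to 3, and 11 (DESeq2) or 1 (without biol rep 6 of naive WT or 2 of naive DYT1KI mice) for genotype in naive cerebellum. Between striatum and cortex 149 became 98 in DYT1KI mice alone and 82 within biol rep 4 to 6. In cerebellum miR-129-3p rested on as few as 49 reads in a library, and its genotype interval reached from -3.45 to -0.65 in injured mice.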
